A study of Mus musculus with 6 samples.

Results

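The genes described here are the 37 genes of the mouse mitochondrial chromosome, chosen by their position on chrM of GRCm38 among the 43629 genes of the count table. They comprise 13 protein-coding genes, 2 ribosomal RNA (rRNA) genes and 22 transfer RNA (tRNA) genes. Reads of the 3′ ends of transcripts were counted in B16F10 tumours, a mouse melanoma line grown under the skin of female C57BL/6J mice aged 8 weeks at injection. The 6 libraries cross 3 inhibitor arms with 2 antibodies, with 1 library per treatment. The control pool received DMSO with control IgG, and the anti-PD-1 pool received DMSO with an antibody against PD-1, an inhibitory receptor of T cells. The AZD5363+MK1775 pool received an AKT inhibitor and a WEE1 inhibitor with control IgG, and the AZD5363+MK1775+anti-PD-1 pool, called here the antibody-treated AZD5363+MK1775 pool, received both inhibitors with the antibody. The KS100 pool received an inhibitor of aldehyde dehydrogenases with control IgG, and the KS100+anti-PD-1 pool, called here the antibody-treated KS100 pool, received it with the antibody. Tumours were collected when control tumours reached 2000 mm3, and RNA was extracted from 1 pool of tumours per treatment, so the spread between mice cannot be seen. Runs of 6 values follow the order in which the pools have just been named, and runs of 4 the inhibitor pools in that order.

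Mitochondrial DNA encodes 13 subunits of the respiratory chain and ATP synthase, and the nucleus encodes all other subunits. Both strands are transcribed as long precursors, from which most mRNAs and rRNAs are released where the tRNAs between them are cut out. The mRNAs then receive a poly(A) tail, and rRNAs carry short tails of a few adenines. The libraries were primed with oligo-dT, which anneals to poly(A). In several mouse mitochondrial genes the tail also completes a stop codon of which the DNA encodes only the first base.

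The 3′ ends of the genes that held most counts show this, from GENCODE M21 transcripts on GRCm38, plus strand, 5′ to 3′. Capitals mark the encoded stop codon or the part of it that is encoded, and the rRNA ends carry none.
mt-Cytb, chrM:15249-15288: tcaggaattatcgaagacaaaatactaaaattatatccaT
mt-Nd4, chrM:11505-11544: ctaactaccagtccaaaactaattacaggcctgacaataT
mt-Nd1, chrM:3668-3707: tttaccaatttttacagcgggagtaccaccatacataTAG
mt-Nd2, chrM:4912-4951: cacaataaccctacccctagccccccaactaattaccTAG
mt-Rnr1, chrM:985-1024: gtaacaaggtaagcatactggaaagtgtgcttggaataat
mt-Rnr2, chrM:2636-2675: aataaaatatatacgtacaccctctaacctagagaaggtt
Of the 13 protein-coding genes, 3 (mt-Cytb, mt-Nd4 and mt-Co3) ended in the single base T, and 10 carried a whole stop codon within their annotated span. The last 2 bases of mt-Nd1 and of mt-Nd2 also belong to the tRNA gene that follows on the same strand, mt-Ti and mt-Tw.

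Totals ran from 25521 counts in the antibody-treated KS100 pool to 1591673 in the control pool, a 62.4-fold range, so a count of 0 allows a level of up to 3 counts, which is 1.88 CPM (counts-per-million) for the control pool but 118 CPM for the antibody-treated KS100 pool. The reads carry no molecular identifiers, so all intervals cover counting error only. The melanocyte markers (Dct, Pmel, Tyrp1 and 6 others) were present in every pool, with a summed level of 22934, 18946, 10811, 10858, 4805 and 2625 CPM, and Tyr was at 0 in 3 of the inhibitor pools. Skeletal muscle markers summed to 58.4, 759, 0, 7947, 201 and 666 CPM, so the antibody-treated AZD5363+MK1775 pool held the most of them. The summed levels in the 6 pools ran from 75.1 to 1649 CPM for fibroblast markers and from 0 (in the AZD5363+MK1775 pool) to 366.35 for macrophage markers. They ran from 37.5 to 385 CPM for endothelial, 64.998 to 3647 for erythroid and 0 to 549 for fat markers. T cell markers had at most 9 counts in a pool. The highest fibroblast, endothelial and erythroid sums were those of the anti-PD-1 pool, beside 123, 174 and 572 CPM in the control pool. The ribosomal RNA locus Gm42418 took 12.8% of the counts of the antibody-treated AZD5363+MK1775 pool and at most 0.627% of those of any other. A set of 8742 nuclear protein-coding genes, with no count in either pool lacking an inhibitor, took 0.717%, 0.36%, 4.47% and 9.15% of counts in the 4 inhibitor pools. The part of depth, of muscle and of these other RNAs in the mitochondrial values was not tested. In bulk RNA, fewer cells of a type and less RNA per cell cannot be told apart.

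Mitochondrial genes took 30031, 12898, 3504, 67103, 7657 and 3717 counts. Their share of all counts was 1.89% (95% exact binomial interval 1.87 to 1.91), 1.29% (1.27 to 1.31), 13.2% (12.8 to 13.6), 19.8% (19.69 to 19.96), 17.1% (16.8 to 17.5) and 14.6% (14.13 to 15.003). All 4 inhibitor pools lay above both pools without an inhibitor. The mean share was 16.2% ± 2.94 (SD, n = 4) with an inhibitor and 1.59% without, a difference of 14.6 percentage points. Each of the 4 pools is a different treatment, so this SD is not a spread between replicates. An exact two-sided permutation test over the 15 splits of the 6 pools, which doubles the p of 1 tail, gave p = 0.133. That is the smallest p this form of the test can give with these pools, so it could not decide whether the shares differ.

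The 3 classes did not move by the same factor. Protein-coding genes took 1.77%, 1.24%, 10.9%, 5.19%, 12.6% and 11.5% of all counts. The rRNA genes took 0.116%, 0.0508%, 2.23%, 14.6%, 4.47% and 3.04%. The antibody-treated AZD5363+MK1775 pool thus had the lowest mRNA share of the 4 inhibitor pools and the highest rRNA share. The tRNA genes held 10, 4, 7, 127, 10 and 2 counts. The stacked bars of share by class show that the high total of that pool was made up mostly of rRNA.

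**Figure D1:**
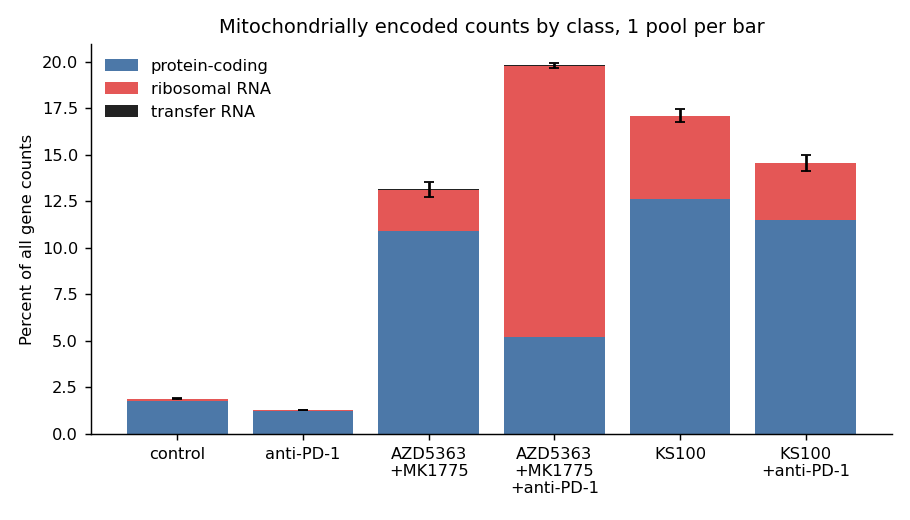
Share of all gene counts on mitochondrially encoded genes (y axis, percent) in each of the 6 pools (x axis), stacked by class, with bars for the 95% exact binomial interval of the total. The 4 inhibitor pools reach 13.2% to 19.8% against 1.89% and 1.29% without an inhibitor, and rRNA (red) dominates only in the antibody-treated AZD5363+MK1775 pool.

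The counting rule for a comparison of 2 pools needs at least 20 counts in 1 of them, a TMM-normalised ratio (trimmed mean of M-values, a scaling to the bulk of genes) of at least 2 either way, and a 95% exact interval wholly beyond 1.5-fold. It is a rule of size without a test, since each pool is a single library. Against control, all 12 members tested were higher in the AZD5363+MK1775 pool, where 1.65% of all genes tested were called higher. In the antibody-treated AZD5363+MK1775 pool 10 of 11 were higher (14.9% of all genes), in the KS100 pool 10 of 10 (4.5%) and in the antibody-treated KS100 pool 8 of 8 (4.59%). No member was lower in these 4 comparisons, where 1.28%, 8.02%, 1.86% and 2.86% of all genes were called lower. In the anti-PD-1 pool 0 of 8 members were higher (2.69% of all genes) and 2 of 8, both rRNAs, were lower (2.14%). The median log2 ratio of the members tested was −0.64, 3.30, 5.39, 4.54 and 4.47 for the anti-PD-1, AZD5363+MK1775, antibody-treated AZD5363+MK1775, KS100 and antibody-treated KS100 pools in turn, beside −0.0036, −1.03, −0.0075, −0.49 and −2.48 over all genes tested. A gene could meet the minimum through the deep control pool alone and be at or near 0 in a shallow pool. Such genes pull down the median over all genes, and their calls there rest on few counts. The medians and shares over all genes are thus not matched in level to the members. The 5 ratios share the control pool. A member with few control counts could meet the minimum only through a pool where it was high, so these counts describe the members tested and not all 37.

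The 2 rRNA genes, whose products form the core of the mitochondrial ribosome, lie at the start of the transcribed heavy-strand precursor. mt-Rnr1 (12S rRNA, chrM:70-1024) had 1061, 278, 216, 22961, 762 and 291 counts. That is 667, 277, 8108, 67837, 17029 and 11402 CPM, lowest in the anti-PD-1 pool and highest in the antibody-treated AZD5363+MK1775 pool. Its ratio to control was 0.405 (0.353 to 0.462), 11.3 (9.73 to 13.1), 164 (155 to 175), 33.1 (30.2 to 36.4) and 24.3 (21.3 to 27.7) in the 5 treated pools. No treated pool's interval reached 1 for this gene.

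mt-Rnr2 (16S rRNA, chrM:1094-2675) followed the same order of pools, with 780, 231, 379, 26439, 1236 and 484 counts. Its ratio to control was 0.457 (0.393 to 0.530), 27.0 (23.8 to 30.6), 257 (239.8 to 277), 73.1 (66.8 to 80.1) and 54.9 (48.9 to 61.6). In each inhibitor pool the 16S rRNA stood further above control than the 12S rRNA, with intervals that did not overlap. The ratio of mt-Rnr2 to mt-Rnr1 counts was 0.735 (0.669 to 0.807), 0.831 (0.695 to 0.993), 1.75 (1.48 to 2.08), 1.15 (1.13 to 1.17), 1.62 (1.48 to 1.78) and 1.66 (1.44 to 1.93). It was thus below 1 in both pools without an inhibitor and above 1 in all 4 with one.

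The ratio of rRNA to protein-coding counts needs no scaling between pools. It was 0.0653 (0.0623 to 0.0685), 0.0411 (0.0375 to 0.0449), 0.205 (0.187 to 0.224), 2.81 (2.76 to 2.86), 0.354 (0.336 to 0.372) and 0.264 (0.243 to 0.285). The intervals of the 6 pools did not overlap, and rRNA outnumbered mRNA counts only in the antibody-treated AZD5363+MK1775 pool.

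**Figure D2:**
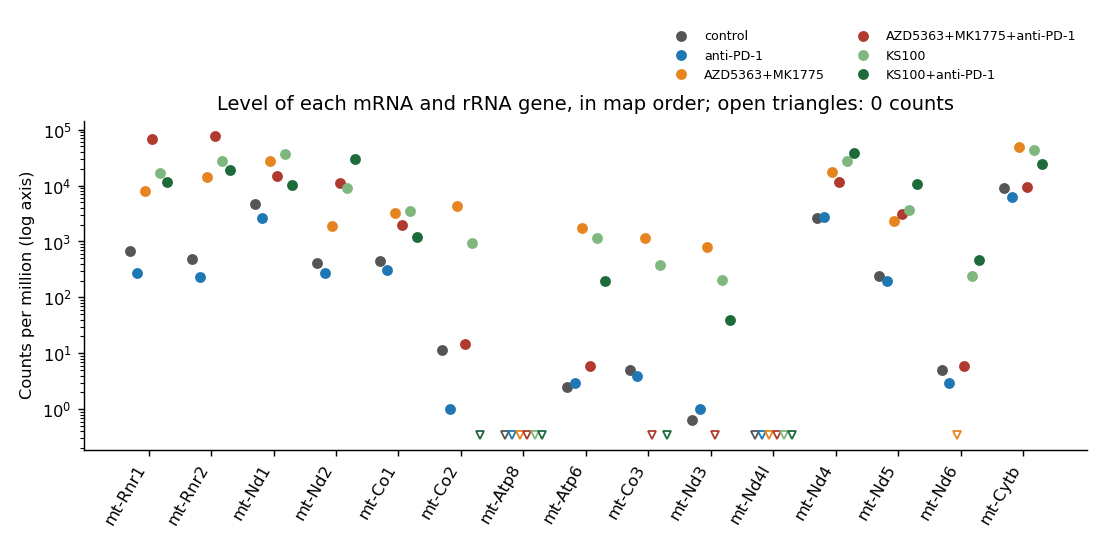
CPM (y axis, log axis) of the 13 protein-coding and 2 rRNA genes in map order (x axis), 1 point per pool, with open triangles at the foot for 0 counts. The rRNAs and mt-Nd1, mt-Nd2, mt-Co1, mt-Nd4 and mt-Nd5 were higher in all 4 inhibitor pools than in control. By CPM, mt-Cytb was level with control in the antibody-treated AZD5363+MK1775 pool (9392 against 9195), where its TMM-normalised ratio was 1.65. mt-Co2, mt-Atp6, mt-Co3 and mt-Nd3 were high mainly in the AZD5363+MK1775 and KS100 pools.

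mt-Cytb (chrM:14145-15288) encodes cytochrome b, the only mitochondrially encoded subunit of complex III. It had 14636, 6254, 1288, 3179, 1903 and 628 counts, and in the control pool it took 48.7% of all mitochondrial counts. Its ratio to control was 0.660 (0.641 to 0.680), 4.89 (4.62 to 5.18), 1.65 (1.59 to 1.71), 6.00 (5.72 to 6.29) and 3.80 (3.50 to 4.11). It was the one member tested that the size rule did not call higher in the antibody-treated AZD5363+MK1775 pool.

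The complex I subunits differed in how far they stood above control. mt-Nd1 (chrM:2751-3707), a subunit of the membrane arm next to the quinone site, had 7566, 2645, 733, 5101, 1652 and 263 counts. Its ratio to control was 0.540 (0.516 to 0.564), 5.39 (4.99 to 5.81), 5.12 (4.94 to 5.31), 10.1 (9.55 to 10.6) and 3.08 (2.71 to 3.48). mt-Nd4 (chrM:10167-11544), one of the proton-pumping subunits, had 4165, 2698, 470, 3889, 1238 and 959 counts, at ratios of 1.00 (0.953 to 1.05), 6.27 (5.69 to 6.90), 7.09 (6.79 to 7.41), 13.7 (12.9 to 14.6) and 20.4 (19.0 to 21.9). In the anti-PD-1 pool mt-Nd4 was level with control, while mt-Nd1 and mt-Cytb were below it.

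mt-Nd2 and mt-Nd5 encode other large pumping subunits. Their ratios to control lay above that of mt-Cytb, with intervals that did not overlap, in every inhibitor pool except, for mt-Nd2, the AZD5363+MK1775 pool. mt-Nd2 (chrM:3914-4951) had 664, 269, 51, 3685, 406 and 767 counts. Its ratio to control was 0.626 (0.541 to 0.722), 4.27 (3.15 to 5.68), 42.2 (38.8 to 45.9), 28.2 (24.9 to 32.0) and 102 (92.0 to 114). The antibody-treated KS100 pool, the shallowest, thus held more mt-Nd2 reads than the control pool with 62.4 times its depth. mt-Nd5 (chrM:11742-13565) had 389, 197, 61, 1042, 164 and 274 counts, at ratios of 0.782 (0.656 to 0.931), 8.72 (6.54 to 11.4), 20.3 (18.1 to 22.9), 19.5 (16.1 to 23.4) and 62.3 (53.2 to 73.0). Both genes were highest against control in the antibody-treated KS100 pool.

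**Figure D3:**
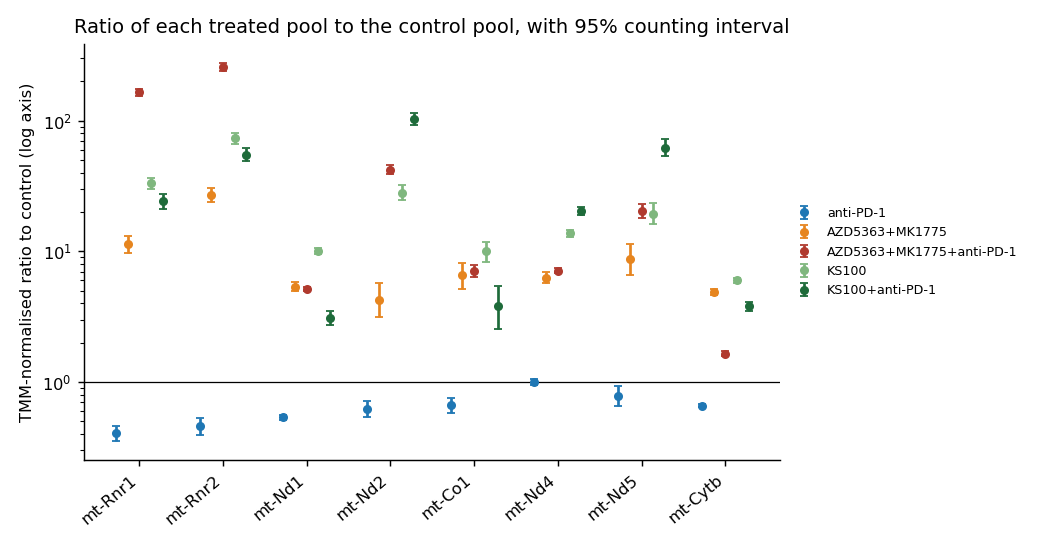
TMM-normalised ratio of each treated pool to the control pool (y axis, log axis) for the 8 members with the most counts in the control pool (x axis, in map order), with 95% exact counting intervals. All inhibitor pools lie above 1, from 1.65 for mt-Cytb to 257 for mt-Rnr2, both in the antibody-treated AZD5363+MK1775 pool, and the anti-PD-1 pool lies at or below 1.

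The complex IV gene mt-Co1 (chrM:5328-6872), which encodes the catalytic subunit of cytochrome c oxidase, had 721, 310, 85, 671, 156 and 31 counts. Its ratio to control was 0.664 (0.579 to 0.760), 6.55 (5.17 to 8.22), 7.07 (6.35 to 7.86), 9.98 (8.34 to 11.9) and 3.81 (2.57 to 5.45). Its interval overlapped that of mt-Nd1 in the AZD5363+MK1775 pool and both KS100 pools and lay above it in the antibody-treated AZD5363+MK1775 pool.

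The genes from mt-Co2 to mt-Nd3, which lie next to each other, showed another pattern. mt-Co2 (chrM:7013-7696), which takes up electrons from cytochrome c, had 18, 1, 115, 5, 42 and 0 counts. mt-Atp6 (chrM:7927-8607), part of the proton channel of ATP synthase, had 4, 3, 47, 2, 51 and 5. mt-Co3 (chrM:8607-9390), a structural subunit of complex IV, had 8, 4, 31, 0, 17 and 0, and mt-Nd3 (chrM:9459-9806), a small complex I subunit, had 1, 1, 21, 0, 9 and 1. Per depth, each was higher in the AZD5363+MK1775 and KS100 pools than in any other. In the antibody-treated KS100 pool, the shallowest, the 5 counts of mt-Atp6 were 196 CPM and 111 (23.8 to 558) times control, while a count of 0 there allows 118 CPM. The ratio of the AZD5363+MK1775 pool to control was 355 (215 to 621) for mt-Co2, 653 (239 to 2497) for mt-Atp6, 215 (96.9 to 542) for mt-Co3 and 1168 (188 to 48284) for mt-Nd3. The widths reflect control counts of 18 or fewer, and the nuclear copies of these 4 genes, described below, bear on every one of these values.

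mt-Nd6, the only protein-coding gene on the minus strand (chrM:13552-14070), had 8, 3, 0, 2, 11 and 12 counts. It is named although no pool reached 20 counts, because a model described below called it. mt-Atp8 (chrM:7766-7969) and mt-Nd4l (chrM:9877-10173), which encode small membrane subunits of ATP synthase and complex I, had 0 counts in every pool. Each overlaps the gene that follows it, mt-Atp8 by 43 bases and mt-Nd4l by 7, and how reads in such overlaps were counted is not given in the sources used here. A further 14 bases are shared by mt-Nd5 and mt-Nd6, on opposite strands.

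Of the 22 tRNA genes, whose products lack poly(A) tails and are cut from the precursors, 14 had a count in some pool and 8 were at 0 in all. Only 3 reached 20 counts, all in the antibody-treated AZD5363+MK1775 pool. mt-Tq, the glutamine tRNA (chrM:3772-3842, minus strand), had 2, 0, 0, 34, 2 and 1 counts. mt-Tm, the methionine tRNA (chrM:3845-3913), had 0, 0, 1, 30, 2 and 0, and mt-Tp, the proline tRNA (chrM:15356-15422, minus strand), had 1, 1, 0, 26, 1 and 0. Against control, that pool was higher by 129-fold (33.1 to 1109.5) for mt-Tq, at least 76.0-fold for mt-Tm against the 3 counts that its control count of 0 allows (exact lower limit 58.1), and 198-fold (32.4 to 8097) for mt-Tp. The other 11 detected tRNA genes never exceeded 8 counts, and mt-Td, the aspartate tRNA, with 6 counts in the AZD5363+MK1775 pool, was the one among them with most counts outside the antibody-treated AZD5363+MK1775 pool.

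Across the genome, a model with additive terms for the inhibitor and the antibody was fitted to the 6 pools with edgeR's quasi-likelihood test and Benjamini-Hochberg adjustment over 4912 genes. It has 2 residual degrees of freedom and takes pools of other treatments as replicates, so a different antibody response between inhibitors would count as error. It held 13 of the 37 members, the 2 rRNAs and 11 mRNAs, and a member low in control could enter through the pools where it was high. The SE given is the log2 change over the root of its F statistic, a rough guide.

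For KS100, 10 of the 13 members rose (7.21% of all genes rose) and 0 fell (0.489% fell) by edgeR's test, with 12 at an unadjusted p under 0.05, and DESeq2's Wald test called 12 higher and 0 lower. Of the 8 members with at least 20 counts in the control pool, 5 rose. mt-Rnr1 rose by a log2 of 5.30 (SE 1.66, edgeR adjusted p = 0.0222), mt-Rnr2 by 6.41 (SE 1.83, adjusted p = 0.00906), mt-Nd2 by 5.71 (SE 1.49, adjusted p = 0.0032) and mt-Nd5 by 5.23 (SE 1.22, adjusted p = 0.000523), and mt-Co1 also rose. The other 5 called, mt-Nd6 (6.71, SE 1.09), mt-Atp6 (7.89, SE 1.29), mt-Co2, mt-Co3 and mt-Nd3, had 18 counts or fewer in each pool without an inhibitor and could pass the filter through the inhibitor pools, so their values are given as a description. mt-Nd1 (2.98, SE 1.42, adjusted p = 0.222), mt-Nd4 (4.07, SE 1.51, adjusted p = 0.0749) and mt-Cytb (2.55, SE 1.47, adjusted p = 0.323) did not pass. The median log2 change of the 13 members was 5.30, beside −0.47 over all genes fitted. The count was 3 without the control pool, 1 without the KS100 pool, 5 without either the anti-PD-1 pool or the antibody-treated KS100 pool, and 11 without the antibody-treated AZD5363+MK1775 pool. The calls of mt-Rnr1, mt-Rnr2 and mt-Nd2 were each lost without the control, anti-PD-1, KS100 or antibody-treated KS100 pool, at log2 changes of 3.17 to 7.80, 4.49 to 8.55 and 4.74 to 8.23. That of mt-Nd5 was lost without the anti-PD-1 or KS100 pool, and that of mt-Co1 without any pool other than the antibody-treated AZD5363+MK1775 pool. The mt-Co3 change turned negative without the control pool (−4.08) or the KS100 pool (−2.06), where it was not called.

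For AZD5363+MK1775, 6 of the 13 members rose (1.28% of all genes rose) and 0 fell (0.0611% fell), with 10 at an unadjusted p under 0.05, and DESeq2's Wald test called 10 higher and 0 lower. mt-Rnr1 rose by a log2 of 6.68 (SE 1.92, edgeR adjusted p = 0.0426) and mt-Rnr2 by 7.37 (SE 2.02, adjusted p = 0.0297). They were the 2 called among the 8 members with at least 20 control counts. The other 4 called, mt-Co2 (7.64, SE 1.35), mt-Atp6 (6.78, SE 1.27), mt-Co3 (5.08, SE 1.38) and mt-Nd3 (7.86, SE 1.48), could pass the filter through the inhibitor pools, so these values too are a description. mt-Nd2 (3.96, SE 1.45, adjusted p = 0.221), mt-Nd5 (3.80, SE 1.14, adjusted p = 0.0575), mt-Co1 (3.11, SE 0.96, adjusted p = 0.076), mt-Nd1 (2.90, SE 1.41, adjusted p = 0.525), mt-Nd4 (2.73, SE 1.42, adjusted p = 0.587) and mt-Cytb (1.83, SE 1.45, adjusted p = 0.827) did not pass. The median of the 13 was 3.96, beside −0.08 over all genes fitted. No member was called without the control pool. Both rRNA calls were lost on leaving out any pool other than the AZD5363+MK1775 pool, at log2 changes of 3.97 to 8.10 for mt-Rnr1 (edgeR adjusted p = 0.425 to 1) and 5.20 to 8.63 for mt-Rnr2 (adjusted p = 0.264 to 1). The mt-Co3 change turned negative without the control pool (−3.14) or the AZD5363+MK1775 pool (−3.28).

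For anti-PD-1, 2 of the 13 members fell (0.0407% of all genes fell) and 0 rose (0.102% rose) by edgeR's test, with 4 at an unadjusted p under 0.05, and DESeq2's Wald test called 1 lower and 0 higher. The 2 genes were mt-Co2, by a log2 of −6.54 (SE 1.12), and mt-Co3, by −4.52 (SE 1.08). Both had 18 counts or fewer in each pool without an inhibitor and could pass the filter through the inhibitor pools, so these values are a description. The anti-PD-1 pool itself was at 0.0858 (0.00206 to 0.543) times control for mt-Co2 and 0.772 (0.170 to 2.88) for mt-Co3. Both were under the minimum of the size rule. The median of the 13 was −0.61, beside 0.08 over all genes. No member was called without either the AZD5363+MK1775 pool or the antibody-treated AZD5363+MK1775 pool, and 1 was without either of the KS100 pools.

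Between the inhibitor arms, 1 of the 13 members was lower with AZD5363+MK1775 than with KS100 (1.51% of all genes were lower) and 0 were higher (0.143% were higher) by edgeR's test, with 1 at an unadjusted p under 0.05, and DESeq2's Wald test also called 1 lower and 0 higher. It was mt-Nd6, at a log2 of −5.95 (SE 1.37), from 0 and 2 counts in the AZD5363+MK1775 pools and 11 and 12 in the KS100 pools. With 12 counts or fewer in every pool, it could pass the filter through the shallow KS100 pools, so this value is a description. The call was lost without the antibody-treated AZD5363+MK1775 pool or without either of the KS100 pools. For the other 12 members the 2 arms were not shown to differ, with log2 differences from −1.75 (SE 1.25) for mt-Nd2 to 1.52 (SE 1.05) for mt-Co2.

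Mitochondrial DNA has inserted into nuclear chromosomes many times, and such copies can hold the same sequence as the genes. The 37 transcripts were compared with all other annotated GENCODE M21 transcripts. Only matches in the same orientation as both transcripts, and in genes of the count table, were kept. Stretches of at least 200 bases at 95% identity or more were shared with 11 nuclear pseudogenes and 9 members, and at 99% identity with 7 members. A block on the minus strand of chromosome 1 (chr1:24611535-24616197) carried copies of 7 neighbouring genes from mt-Co1 to mt-Nd4. The rRNAs, mt-Nd1, mt-Nd6 and mt-Cytb had no such annotated copy. The tRNA genes are shorter than 200 bases and could not meet the length, which mt-Atp8 exceeds only just, so the search says nothing of them.

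In that block, Gm28661 matched mt-Co2 and Gm10925 matched mt-Atp6 at every aligned base, as did Gm28437 for mt-Co3, Gm10222 for mt-Nd4l and Gm28439 for the first 876 bases of mt-Nd4. Gm28438 differed from mt-Nd3 at 1 base, T3C, counted from the first base of the gene, the mitochondrial base first. Gm29216 matched the last 483 bases of mt-Co1 with 1 difference, A1066T. These single bases, in capitals below, are all that separates the members of each pair over their aligned length, from GENCODE M21 on GRCm38, each 5′ to 3′ on its own transcribed strand.
mt-Nd3, chrM:9459-9476: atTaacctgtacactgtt
Gm28438, chr1:24613102-24613119: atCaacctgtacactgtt
mt-Co1, chrM:6390-6408: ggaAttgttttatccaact
Gm29216, chr1:24616170-24616188: ggaTttgttttatccaact
How reads with several matches were counted is not given in the sources used here, so the split of counts within a pair is uncertain.

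The 6 copies with at least 20 counts in some pool were these. Gm10925, the copy of mt-Atp6, had 218, 139, 83, 87, 63 and 5 counts, so mt-Atp6 itself held 1.80%, 2.11%, 36.2%, 2.25%, 44.7% of the pair in the first 5 pools, and each had 5 counts in the last. Gm28437, the copy of mt-Co3, had 84, 38, 82, 12, 24 and 0 counts, and Gm28438, the copy of mt-Nd3, had 54, 22, 39, 8, 21 and 0. mt-Co2 had a pair of copies, Gm28661 with 8, 2, 31, 2, 18 and 3 counts and Gm13341 on chromosome 2, at 95.9% identity, with 296, 180, 72, 73, 33 and 1. In both pools without an inhibitor, most reads of mt-Atp6, mt-Co3, mt-Nd3 and mt-Co2 and of all their listed copies together were thus counted on the copies. For mt-Co2 these lay mainly on Gm13341, while Gm28661 had fewer control counts than mt-Co2 itself. The 33 counts of Gm29216 in the antibody-treated KS100 pool were next to 31 of mt-Co1, while in the control pool they were 0 and 721.

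**Figure D4:**
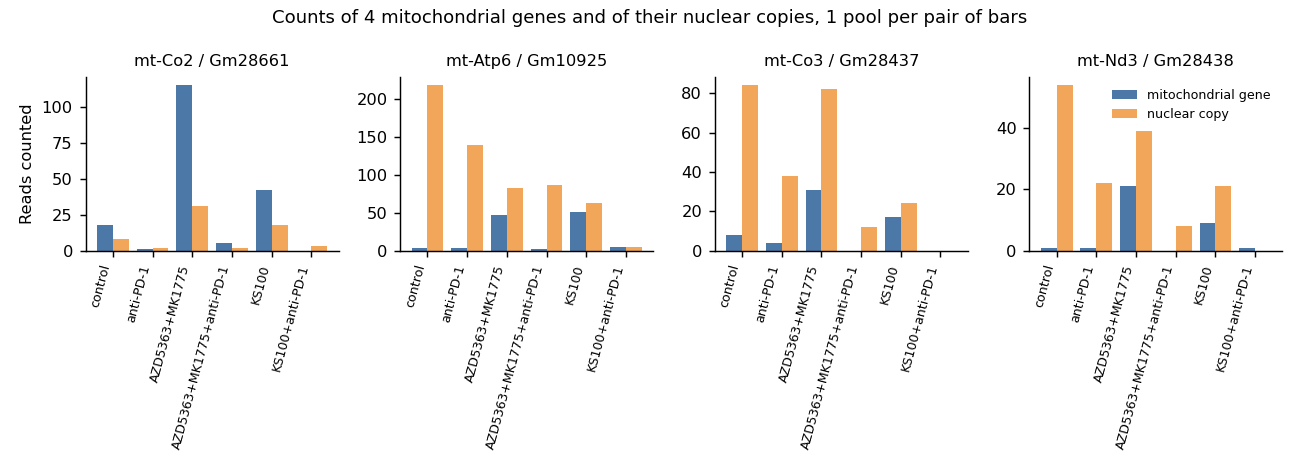
Reads counted (y axis, 1 scale per panel) for 4 mitochondrial genes (blue) and their chromosome 1 copies (orange) in each of the 6 pools (x axis). The copies of mt-Atp6, mt-Co3 and mt-Nd3 hold nearly all reads of their pair in the control pool, and the mitochondrial genes gain in share in the AZD5363+MK1775 and KS100 pools.

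With the copies' counts added to their member, the AZD5363+MK1775 pool was still higher than control for these 4 genes, but by less, at 37.6-fold (31.5 to 44.8) for mt-Co2, 32.6-fold (26.0 to 40.6) for mt-Atp6, 68.3-fold (51.4 to 90.9) for mt-Co3 and 60.7-fold (41.4 to 89.1) for mt-Nd3. In the KS100 pool the ratios were 13.3 (10.5 to 16.8), 23.7 (18.7 to 29.8), 20.6 (13.9 to 30.0) and 25.2 (15.6 to 39.97). In the antibody-treated AZD5363+MK1775 pool only mt-Atp6 of the 4 was called higher, at 3.05 (2.35 to 3.91), and mt-Co2 was at 1.89 (1.46 to 2.42). In the antibody-treated KS100 pool, mt-Atp6 was at 3.99 (1.89 to 7.47). In the edgeR model with copies added, only the 2 rRNAs were still called for AZD5363+MK1775, in place of 6 members, and 7 in place of 10 rose for KS100. The other 4 genes had log2 changes of 2.86 to 3.39 for AZD5363+MK1775 (edgeR adjusted p = 0.0956 to 0.266). For anti-PD-1, 0 in place of 2 members fell, with mt-Co2 at −2.74 (edgeR adjusted p = 0.800) and mt-Co3 at −3.92 (adjusted p = 0.0700).

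Within the mitochondrial mRNAs, the make-up changed between pools, which again needs no scaling. Complex I genes made up 45.4%, 46.9%, 46.0%, 78.1%, 61.6% and 77.4% of protein-coding counts. mt-Cytb, of complex III, made up 51.9%, 50.5%, 44.4%, 18.1%, 33.7% and 21.4%. Complex IV genes made up 2.65%, 2.54%, 7.96%, 3.85%, 3.81% and 1.05%, and ATP synthase genes 0.0142%, 0.0242%, 1.62%, 0.0114%, 0.903% and 0.17%. These shares are for the counts as deposited and depend on how reads were split with the nuclear copies. With copies added, the control pool had 222 counts for mt-Atp6 in place of 4 and 322 for mt-Co2 in place of 18. The AZD5363+MK1775 pool had 130 in place of 47 and 218 in place of 115. Both combination pools thus had a low share of mt-Cytb and a high share of complex I, and the AZD5363+MK1775 pool lay near the pools without an inhibitor in both.

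**Figure D5:**
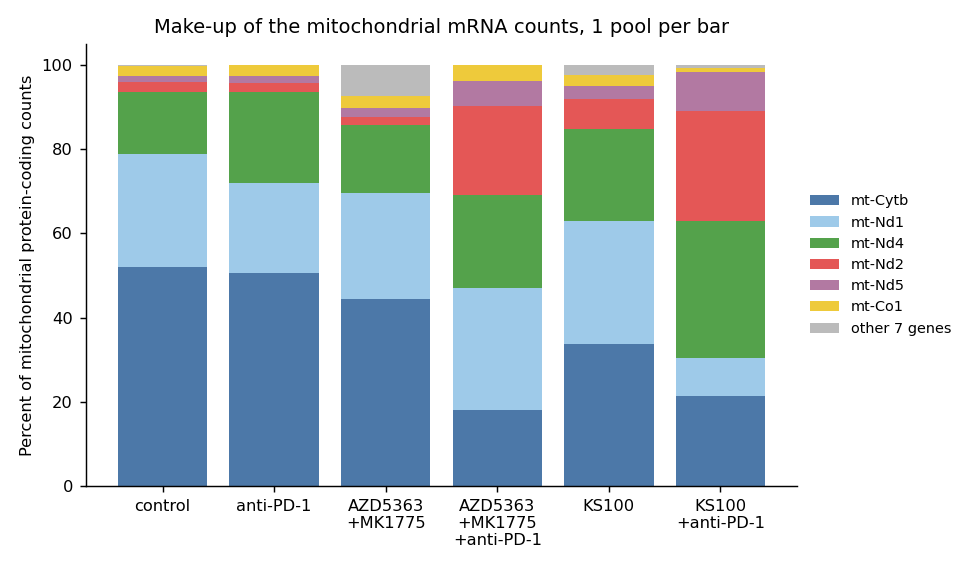
Share of mitochondrial protein-coding counts (y axis, percent) held by each of 6 genes and by the other 7 together in each pool (x axis). mt-Cytb takes 51.9% in the control pool and 18.1% and 21.4% in the combination pools, where mt-Nd2, mt-Nd4 and mt-Nd5 take more.

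Per kilobase of gene, mt-Cytb was the highest of all members in the control (12794 counts per kb), anti-PD-1 (5467) and AZD5363+MK1775 (1126) pools. mt-Rnr1 led in the antibody-treated AZD5363+MK1775 pool (24043), mt-Nd1 in the KS100 pool (1726, next to 1663 for mt-Cytb) and mt-Nd2 in the antibody-treated KS100 pool (739, next to 696 for mt-Nd4). Since reads come from primed ends, a level per kb depends on where priming took place as well as on the amount of RNA.

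Ratios to mt-Cytb within a pool show how far other members moved apart from it. For the rRNAs the ratio reached 99.6 (mt-Rnr1) and 156 (mt-Rnr2) times its control value in the antibody-treated AZD5363+MK1775 pool. The ratio of mt-Nd2 to mt-Cytb counts was 0.0454 (0.0419 to 0.0490), 0.0430 (0.0379 to 0.0486), 0.0396 (0.0293 to 0.0524), 1.16 (1.11 to 1.22), 0.213 (0.191 to 0.238) and 1.22 (1.10 to 1.36). The first 3 pools overlapped, and the others were 4.70 to 26.9 times the control value. For mt-Nd5 the ratio was 0.0266, 0.0315, 0.0474, 0.328, 0.0862 and 0.436, for mt-Nd4 0.285, 0.431, 0.365, 1.22, 0.651 and 1.53, and for mt-Nd1 0.517, 0.423, 0.569, 1.60, 0.868 and 0.419. mt-Co1 to mt-Cytb was 0.0493, 0.0496, 0.0660, 0.211, 0.0820 and 0.0494, so with the reads divided as deposited it was level with control in the antibody-treated KS100 pool, where mt-Nd2 was 26.9 times and mt-Nd5 16.4 times its control value. With the copies' counts added, mt-Co1 was at 7.89 (6.03 to 10.2) times control in that pool, beside 3.80 for mt-Cytb.

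These genes differ in their runs of adenine. A run was counted as AAAAA or longer on the gene's own strand. mt-Nd2 had 6 such runs in 1038 bases, mt-Nd5 had 7 in 1824, mt-Nd4 had 5 in 1378, and mt-Nd1, mt-Co1 and mt-Cytb had 1 each. mt-Rnr2 had 9 and mt-Rnr1 had 2. Among the last bases of 19117 nuclear protein-coding transcripts, 76.2% had at least 1 run over the length of mt-Nd2 and 5.60% had at least 6. Over the lengths of the others, the share with at least as many runs was 3.15% for mt-Rnr2, 12.7% for mt-Nd5, 18.2% for mt-Nd4, 48.7% for mt-Rnr1, 74.2% for mt-Nd1, 78.2% for mt-Cytb and 84.2% for mt-Co1. The longest run of each, in capitals, is shown because the libraries were primed on adenines, from GENCODE M21 on GRCm38, plus strand.
mt-Nd2, chrM:4038-4073: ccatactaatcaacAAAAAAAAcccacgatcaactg
mt-Nd5, chrM:12622-12656: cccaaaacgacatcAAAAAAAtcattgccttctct
mt-Nd4, chrM:10213-10247: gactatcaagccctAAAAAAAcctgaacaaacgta
mt-Rnr2, chrM:1474-1508: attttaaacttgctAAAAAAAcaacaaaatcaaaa
mt-Nd1, chrM:3606-3639: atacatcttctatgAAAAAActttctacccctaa
mt-Co1, chrM:6102-6136: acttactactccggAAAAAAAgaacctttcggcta
mt-Rnr1, chrM:691-723: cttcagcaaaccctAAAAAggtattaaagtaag
mt-Cytb, chrM:14145-14177: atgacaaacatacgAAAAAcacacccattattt
In the antibody-treated KS100 pool the ratio to mt-Cytb was 26.9 times its control value for mt-Nd2 (5.78 runs per kb). It was 14.5 times for mt-Rnr2 (5.69), 16.4 for mt-Nd5 (3.84) and 5.37 for mt-Nd4 (3.63). For mt-Rnr1 (2.09) it was 6.39, for mt-Nd1 (1.04) 0.810 and for mt-Co1 (0.647) 1.00. The mt-Co1 value is for the counts as deposited, with 31 on mt-Co1 and 33 on its copy Gm29216 in that pool. In the AZD5363+MK1775 pool mt-Nd2 was at 0.873, mt-Nd1 at 1.10, mt-Nd4 at 1.28 and mt-Co1 at 1.34 times its control ratio. There mt-Nd5 was at 1.78, mt-Rnr1 at 2.31 and mt-Rnr2 at 5.52 times. The antibody-treated AZD5363+MK1775 pool had mt-Rnr2 at 156, mt-Rnr1 at 99.6 and mt-Nd2 at 25.6 times. It had mt-Nd5 at 12.3, mt-Nd4 at 4.30, mt-Co1 at 4.28 and mt-Nd1 at 3.10 times. The KS100 pool had mt-Rnr2 at 12.2, mt-Rnr1 at 5.52 and mt-Nd2 at 4.70 times. It had mt-Nd5 at 3.24, mt-Nd4 at 2.29, mt-Nd1 at 1.68 and mt-Co1 at 1.66 times. The deposited counts give no read positions, and the part of A runs in these values was not tested.

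Adding the antibody to an inhibitor went with different directions for different members. In the antibody-treated AZD5363+MK1775 pool against the one with control IgG, 4 of 15 members were higher (11.1% of all genes) and 5 were lower (3.72%). mt-Rnr1 was at 14.5 (12.7 to 16.7), mt-Nd2 at 9.87 (7.49 to 13.3), mt-Rnr2 at 9.53 (8.61 to 10.6) and mt-Nd5 at 2.33 (1.80 to 3.07). mt-Cytb was lower, at 0.337 (0.316 to 0.360), and so were mt-Co2, mt-Atp6, mt-Co3 and mt-Nd3, the last pair, at 0 counts, by at least 75.6-fold and 51.2-fold against the 3-count limit (exact upper limits of the ratio 0.0173 and 0.0262). mt-Nd1, at 0.951 (0.880 to 1.03), mt-Co1, at 1.08 (0.860 to 1.37), and mt-Nd4, at 1.13 (1.03 to 1.25), lay close to 1. Summed, protein-coding counts were at 0.828 (0.796 to 0.861) and rRNA counts at 11.3 (10.5 to 12.3). Here the median log2 ratio was 0.18 for the members tested and 1.10 for all genes tested. A gene could meet the minimum through the deeper antibody-treated pool alone and be near 0 in the other, which raises the median over all genes.

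In the antibody-treated KS100 pool against the one with control IgG, 2 of 10 members were higher (4.31% of all genes) and 4 were lower, where 34% of all genes were lower, a share near that of the members. The median log2 ratio was −0.55 for the members tested and −1.35 for all genes tested. mt-Nd2 was at 3.62 (3.21 to 4.10) and mt-Nd5 at 3.21 (2.63 to 3.91). mt-Nd1 was lower, at 0.305 (0.267 to 0.348), as was mt-Co1, at 0.381 (0.251 to 0.563). With the counts of its copies Gm29216 and Gm13340 added, mt-Co1 was at 0.770 (0.568 to 1.03) and was not called. mt-Co2, at 0 counts, was at least 7.30-fold lower against the 3-count limit (exact upper limit of the ratio 0.176), and mt-Atp6 was at 0.188 (0.0586 to 0.468). Summed protein-coding counts were level at 0.998 (0.955 to 1.04), and rRNA counts were at 0.744 (0.684 to 0.809). mt-Nd2 and mt-Nd5 were thus the members called higher with the antibody in both inhibitor arms. The antibody's effects in the 3 arms were not tested against each other.

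Against the anti-PD-1 pool, the antibody-treated AZD5363+MK1775 pool was higher for 11 of 11 members tested (14% of all genes) and the antibody-treated KS100 pool for 8 of 8 (3.33%). No member tested was lower in either, where 8.11% and 3.06% of all genes were. The ratio was 2.50 (2.40 to 2.61) and 5.76 (5.29 to 6.25) for mt-Cytb, and 67.4 (59.5 to 76.5) and 163 (142 to 188) for mt-Nd2. For mt-Rnr1 it was 406 (361 to 459) and 60.0 (50.7 to 71.0), so the rRNAs and mt-Nd2 ranked the pools in opposite orders.

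The nuclear genes for the other respiratory subunits did not follow the mitochondrial genes. The lists held 36 subunits of complex I, 9 of complex III, 11 of complex IV and 15 of ATP synthase, of which 68 of 71 were fitted. By edgeR's test 0 of 68 rose with KS100, with 17 at an unadjusted p under 0.05, of which 1 was higher. By edgeR 0 were called for AZD5363+MK1775 (5 at an unadjusted p under 0.05) and 0 for anti-PD-1 (3). DESeq2's Wald test called 0, 0 and 3 lower for anti-PD-1, AZD5363+MK1775 and KS100, and 0 higher. The median log2 change was −0.39 for anti-PD-1, −0.66 for AZD5363+MK1775 and −1.34 for KS100, beside 0.08, −0.08 and −0.47 over all genes. Their summed ratio to control was 0.776 (0.764 to 0.787), 0.586 (0.538 to 0.638), 0.481 (0.464 to 0.498), 0.509 (0.468 to 0.553) and 0.190 (0.156 to 0.229) in the 5 treated pools. Over all genes tested, the median log2 ratio to control was −0.0036, −1.03, −0.0075, −0.49 and −2.48 in these pools. Genes near 0 in a shallow pool pull that median down, so the sums and medians are not matched.

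Mitochondrial protein-coding counts were 0.544, 0.476, 5.31, 5.37, 9.89 and 26.5 times the counts of these nuclear subunit genes. The nuclear complex IV genes were lowest in sum, at 0.455, 0.288, 0.315 and 0.121 times control in the 4 inhibitor pools, where mt-Co1 was at 3.81 or above. By the size rule 6, 8, 6 and 5 of these 11 genes were lower against control in the 4 inhibitor pools. Of all genes tested, 1.28%, 8.02%, 1.86% and 2.86% were lower there. Cox6c, Cox7a2, Cox7c and Cox5a, small subunits of complex IV, were each called lower in all 4 inhibitor pools against control. Mitochondrial ribosomal protein genes summed to 0.730 (0.605 to 0.872), 0.843 (0.790 to 0.900), 0.859 (0.735 to 0.998) and 0.467 (0.345 to 0.617) times control, while the rRNAs of the same ribosome were at 11.3 or above. Of 77 such protein genes 47 were fitted and 0 were called by edgeR or by DESeq2 in any of the 4 effects, with 0, 1, 3 and 3 at an unadjusted p under 0.05 for the antibody, the inhibitor pair, KS100 and the difference between the arms.

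Genes that act on mitochondrial RNA were mostly too low to fit. Of 16 genes of mitochondrial transcription and replication 3 were fitted, of 23 genes of mitochondrial RNA processing and turnover 7, and of 18 genes of mitochondrial tRNA charging 1. By edgeR's test 0 of these 11 were called in any of the 4 effects, with 2 at an unadjusted p under 0.05 for KS100 and 0 for the others, and DESeq2's Wald test called 0. Tfam, which packages mitochondrial DNA and starts its transcription, had 226, 127, 3, 26, 3 and 3 counts. Polrmt, the mitochondrial RNA polymerase, had 13, 12, 0, 1, 0 and 0, so changes in it were not detectable at this depth. Of 13 nuclear genes used as a gauge of mitochondrial content, such as the outer membrane channels Vdac1 and Vdac2, 12 were fitted and 0 were called by edgeR or by DESeq2 in any of the 4 effects, with 2 at an unadjusted p under 0.05 for KS100 and 1 for AZD5363+MK1775 against KS100. They had a summed ratio to control of 0.711 (0.596 to 0.842), 0.893 (0.842 to 0.947), 0.451 (0.368 to 0.547) and 0.374 (0.273 to 0.501) in the inhibitor pools.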

How the data were processed

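RNA was measured in 6 pools of B16F10 tumours, 1 library per treatment, with the QuantSeq 3′ FWD kit and 151 MiSeq cycles, per the labels' protocols. The authors deposited whole-number read counts per Ensembl gene, and the submitters' processing notes list bcl2fastq, HISAT2 2.1.0, HTSeq and GRCm38. Whether counting used strand, and how it treated reads with several matches, is not given in the sources used here. Of 43721 rows, 92 spike-in rows, all at 0, were left out.

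Arm effects came from edgeR 4.0.16 under R 4.3.3 (filterByExpr, TMM, quasi-likelihood test, Benjamini-Hochberg, called at 0.05; DESeq2 1.42.0 as an alternative) over all 6 pools, with a common dispersion of 0.215. In a simulation of the KS100 effect over 4974 genes, 11 of 100 genes changed 4-fold and 91 of 100 changed 16-fold were recovered, and 2 unchanged genes were called. The simulation gave every gene the same dispersion and no interaction of inhibitor and antibody. It thus does not gauge recovery for genes that vary more. Pairs of pools were compared by ratio, with exact conditional (Clopper-Pearson) intervals. Copies were sought with blastn 2.17.0 among annotated nuclear transcripts of GENCODE M21, in the same orientation only, and not in a genome sequence. Members with at least 20 counts in a pool are named. The members and lists were chosen with earlier results of these data known, and the copy counts were added to their member as an alternative chosen after seeing the data. The result of 1 nuclear gene of the respiratory lists is not reported here.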

Additional observations from a re-analysis of the deposited data

Results flagged for a closer look

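The 2 rRNAs moved in opposite directions with the antibody in different arms. mt-Rnr1 was at 0.405 (0.353 to 0.462) times control in the anti-PD-1 pool and at 14.5 (12.7 to 16.7) in the antibody-treated AZD5363+MK1775 pool against the one with control IgG. mt-Rnr2 was at 0.457 (0.393 to 0.530) and 9.53 (8.61 to 10.6) in the same comparisons. Each value rests on 1 library per treatment, and the difference was not tested.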

How the results depend on the processing

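Every count of members called against control by the size rule was within 1.5 times its value under DESeq2 size factors, library totals, scaling to nuclear protein-coding counts, minimums of 10 and 50 counts, and added copies. The only count outside that range was the 5 members lower in the antibody-treated AZD5363+MK1775 pool than in the one with control IgG, which was 2 at a minimum of 50 counts, where fewer genes are tested. Scalings shifted all log2 ratios of a pair by at most 0.796 (library totals, same pair). In the arm model, members lower with anti-PD-1 were 1 with no filter, 1 with DESeq2's Wald test and 0 with copies added, members higher with AZD5363+MK1775 were 10 with DESeq2's Wald test and 2 with copies added, and the member lower with AZD5363+MK1775 than with KS100 was 0 with no filter. Leaving out 1 pool at a time gave 0 to 3 members lower with anti-PD-1, 0 to 5 higher with AZD5363+MK1775, 1 to 11 higher with KS100 and 0 to 1 lower between the arms. An arm left with 1 pool was assumed to vary like the others. With 1 pool left out, the log2 change of mt-Co3 ran up to 7.65 for AZD5363+MK1775 and 6.71 for KS100. It turned negative for AZD5363+MK1775 without the control pool (−3.14, adjusted p = 0.859) and without the AZD5363+MK1775 pool (−3.28, adjusted p = 0.891), and for KS100 without the control pool (−4.08, adjusted p = 0.589) and without the KS100 pool (−2.06, adjusted p = 0.914), by edgeR. With library totals mt-Rnr1 (adjusted p = 0.101) and mt-Rnr2 (adjusted p = 0.0755) lost their edgeR calls for AZD5363+MK1775. Outside copies at 95% identity, the rRNA to protein-coding ratio was 0.0829, 0.0572, 0.294, 5.96, 0.560 and 0.858 in the 6 pools, and outside copies at 99% identity 0.0791, 0.0543, 0.279, 3.80, 0.483 and 0.399. The order of the 2 KS100 pools was thus reversed at 95% identity and kept at 99%. The causes were not tested. No paired analysis was possible because each treatment has 1 library and the labels give no shared replicate numbers. Depth limits the shallow pools, where a count of 0 allows 67.0 to 118 CPM.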
